A study of Danio rerio with 12 samples.

Results

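Transcripts of 5 genes linked to the Z-disc of striated muscle were followed across 12 pools of whole zebrafish embryos, out of 32520 genes in the count table. These were *myoz1a* (ENSDARG00000056209), *myoz1b* (ENSDARG00000071445), *myoz3a* (ENSDARG00000067701), *abra* (ENSDARG00000033854) and *ppp1r27a* (ENSDARG00000116806). They were selected on their higher counts under heat in these same pools. The study had already reported *myoz1a*, *myoz1b* and *myoz3a* as higher under heat from these libraries. The heat differences of the 5 genes are therefore given as a description with no test. The stress metabolite comparisons and the interaction were tested. These share libraries with the heat comparisons, so they are not fully independent of the choice. All 5 were among the 18688 genes that passed the filter on low counts, and a filter passed by the group where a gene is high adds nothing to its heat difference.

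The embryos were wild-type AB and were exposed one to a tube for 24 h, up to 1 day post fertilisation (dpf). In TS + SM, embryos lay in stress medium and went through repeated heat peaks of 32°C. In TS, embryos went through the same peaks in fresh medium. In SM, embryos were kept at 27°C in stress medium, which is medium taken from heat-stressed embryos of the day before and holds their stress metabolites. In C, embryos were kept at 27°C in fresh medium. Each treatment had 3 pools of 20 embryos, and gene counts per library ranged from 18764434 to 60239167 with a median of 24659757.5. Because RNA came from whole embryos, a change in the number of muscle fibres and a change in RNA per fibre cannot be told apart. The study reports that its imaged heat-stressed embryos were at a later developmental stage than controls of the same age. It states that effects of heat stress and of faster development under heat are not yet separated. The heat comparisons below are thus not between pools matched for stage, and the part of stage in them was not tested.

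The Z-disc is the plate at the border of each sarcomere, where actin filaments of neighbouring sarcomeres are cross-linked by alpha-actinin. Myozenins, also called calsarcins, are small Z-disc proteins that in mammals bind alpha-actinin, filamin C and telethonin, and tether the calcium-dependent phosphatase calcineurin there. Mammalian myozenin-1 and myozenin-3 are found mostly in fast skeletal fibres, and myozenin-2 in slow fibres and heart. ABRA, also called STARS, is an actin-binding protein of mammalian striated muscle that promotes actin polymerization and, through the MRTF coactivators, transcription by serum response factor (SRF). PPP1R27 is a small ankyrin-repeat protein that binds protein phosphatase 1 (PP1) and, in humans, dysferlin, a protein of muscle membrane repair. Levels below are normalized counts, that is, counts divided by the TMM-scaled library size and multiplied by the mean of that size over the 12 libraries. They compare pools for a gene and not genes with each other, since transcript lengths were not used here. LFC is the log2 fold change from edgeR.

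Among the myozenins, *myoz1a* had 141, 170 and 222 normalized counts in the TS + SM pools and 202, 139 and 219 in the TS pools. It had 52.8, 97.6 and 90.4 in the SM pools and 76.0, 75.8 and 68.1 in the C pools. Every heat pool lay above every pool without heat, and the lowest heat pool (139) was well above the highest pool without heat (97.6). The LFC of *myoz1a* was 1.35 (SE 0.27) in TS vs. C and 1.14 (SE 0.27) in TS + SM vs. SM. Averaged over both media, *myoz1a* was 2.37-fold higher with heat.

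*myoz1b*, the second myozenin-1 gene of zebrafish, had 1308, 995 and 1391 normalized counts in TS + SM, and 1325, 1224 and 1535 in TS. Its levels were 453, 739 and 697 in SM, and 819, 641 and 513 in C. The treatments with and without heat were again separate, with SM replicate 1 the lowest of all pools, as it was for *myoz1a*. The LFC of *myoz1b* was 1.05 (SE 0.22) in TS vs. C and 0.97 (SE 0.22) in TS + SM vs. SM.

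*myoz3a*, a myozenin-3 gene, had 123, 99.3 and 130 normalized counts in TS + SM, and 155, 108 and 183 in TS. It had 71.4, 80.9 and 61.8 in SM, and 70.9, 70.0 and 37.3 in C. The heat pools stayed above the others by a smaller margin than for *myoz1a*, and C replicate 3 was the lowest pool. The LFC of *myoz3a* was 1.33 (SE 0.29) in TS vs. C and 0.72 (SE 0.29) in TS + SM vs. SM. Of the 5 genes it had the smallest heat difference in stress medium.

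*abra*, which encodes the actin-binding protein, had 87.3, 91.6 and 178 normalized counts in TS + SM, and 127, 112 and 99.0 in TS. It had 31.0, 45.2 and 38.6 in SM, and 53.7, 59.3 and 40.1 in C. The pools with and without heat did not overlap, and TS + SM replicate 3 was far above the other TS + SM pools. The LFC of *abra* was 1.14 (SE 0.31) in TS vs. C and 1.63 (SE 0.32) in TS + SM vs. SM. Without TS + SM replicate 3 the value for *abra* in TS + SM vs. SM was 1.23.

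*ppp1r27a*, the PP1 regulator, had 224, 263 and 541 normalized counts in TS + SM, and 177, 225 and 309 in TS. It had 68.3, 105 and 71.7 in SM, and 168, 114 and 117 in C. The gap was narrow here: the lowest heat pool (177 in TS) lay just above the highest pool without heat (168 in C). The LFC of *ppp1r27a* was 0.83 (SE 0.34) in TS vs. C and 2.06 (SE 0.36) in TS + SM vs. SM. It was 1.59 in TS + SM vs. SM without TS + SM replicate 3. Its spread under heat was the widest of the 5, with a coefficient of variation of 50.3% over the TS + SM pools and 28.1% over the TS pools.

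**Figure D1:**
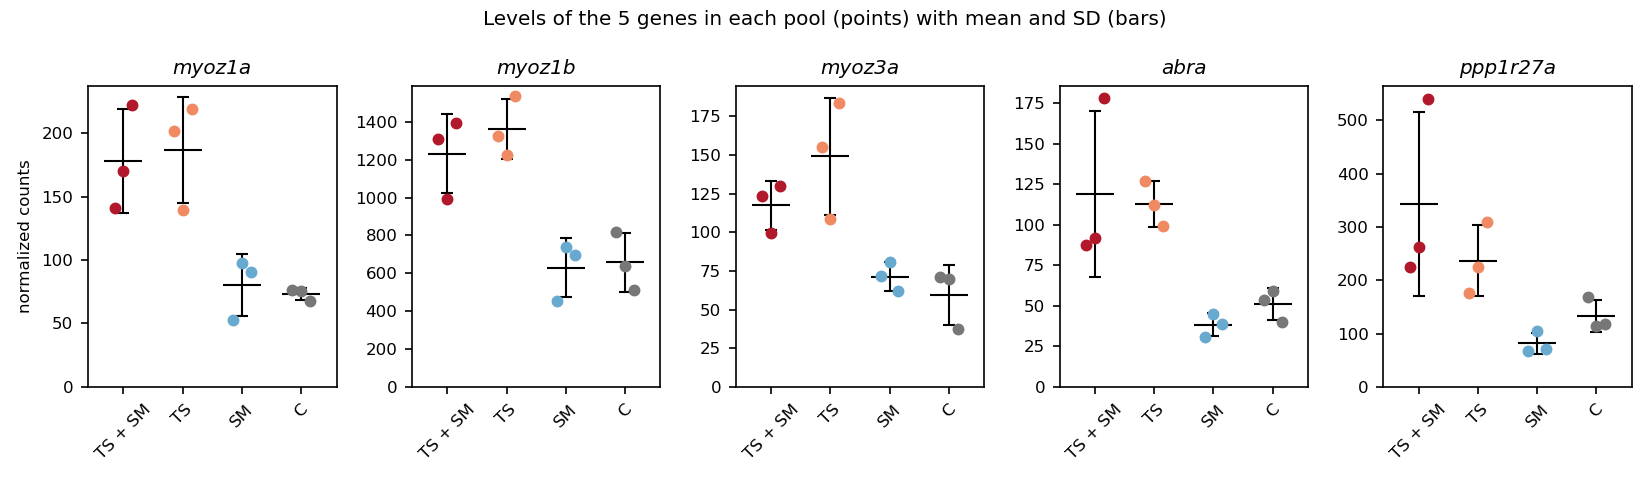
Normalized counts of the 5 genes in each pool, with TS + SM, TS, SM and C from left to right on the x axis and a linear y axis from 0 in each panel. Points are pools, the horizontal bar is the mean and the error bar is the SD (n = 3). In all 5 panels the 6 heat pools lie above the 6 pools without heat, most narrowly for *ppp1r27a* (177 against 168).

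Over the 5 genes the median LFC with heat averaged over both media was 1.24, with a lowest value of 1.01 (*myoz1b*) and a highest of 1.45 (*ppp1r27a*), beside a median of -0.00 over all 18688 genes tested. The median of the 5 was 1.14 in TS vs. C and also 1.14 in TS + SM vs. SM. All 5 had each heat pool above each pool without heat, as had 275 of the genes tested (1.47%). Of all genes tested, 131 (0.701%) were called higher and 28 (0.15%) lower by edgeR with heat averaged over media at a *P*-adj of 0.05. DESeq2 called 443 genes in that contrast, higher and lower together, where edgeR called 159. The DESeq2 counts in the lists below thus stand against a larger background than those of edgeR. In the single-medium comparisons 14 genes (0.0749%) were called higher in TS vs. C and 16 (0.0856%) in TS + SM vs. SM by edgeR. The 5 genes were not among them. DESeq2 called 3 of the 5 in TS vs. C and 4 in TS + SM vs. SM, out of 113 and 143 genes called. Those counts follow in part from the selection on heat. An unadjusted *P* under 0.05 with heat averaged over media was found for 1750 of the genes tested (9.36%), which is the background for such counts in the lists below. Counts of this kind take higher and lower genes together. These shares stand beside the heat values as the background only, since heat is what the genes were selected on.

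Stress metabolites were not the factor of the selection, though these comparisons share its libraries. No change with stress metabolites was detectable for any of the 5 genes. In SM vs. C, 0 of 5 passed a *P*-adj of 0.05 with edgeR's quasi-likelihood test, 0 had an unadjusted *P* under 0.05, and DESeq2 called 0. In TS + SM vs. TS the same counts were 0, 0 and 0. Over all genes edgeR called 0 (0%) in either comparison, with 396 genes under an unadjusted *P* of 0.05 in SM vs. C and 271 in TS + SM vs. TS, and DESeq2 called 1 and 0 genes. The counts of 396 and 271 are below what that threshold alone would give over 18688 genes with no change. A result of 0 of 5 therefore does not set these genes apart from the rest. The intervals of these differences were also wide, so that moderate changes cannot be told from none with 3 pools a treatment.

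For *myoz1a* the LFC was 0.14 in SM vs. C (95% confidence interval -0.46 to 0.74) and -0.08 in TS + SM vs. TS (-0.65 to 0.50). For *myoz1b* it was -0.06 in SM vs. C (-0.54 to 0.42) and -0.15 in TS + SM vs. TS (-0.62 to 0.33). These were the narrowest intervals among the 5 genes, and each spans 0. *myoz3a* had an LFC of 0.26 in SM vs. C (-0.38 to 0.90) and -0.35 in TS + SM vs. TS (-0.97 to 0.27). *abra* had -0.41 in SM vs. C (-1.11 to 0.29) and 0.08 in TS + SM vs. TS (-0.59 to 0.74).

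*ppp1r27a* had the lowest LFC of the 5 in SM vs. C. Its LFC was -0.70 in SM vs. C (95% confidence interval -1.47 to 0.06) and 0.53 in TS + SM vs. TS (-0.21 to 1.26), where it was 0.065 without TS + SM replicate 3. The SM pools had 68.3 to 105 normalized counts and the C pools 114 to 168. Neither comparison passed the test, with *P*-adj of 0.989 and 0.996 from edgeR. The heat LFC of *ppp1r27a* was larger in stress medium than in fresh medium by 1.23 on the log2 scale (SE 0.49, 95% confidence interval 0.17 to 2.29). That interaction of heat and SM had an unadjusted edgeR *P* of 0.0265 and a *P*-adj of 1, so that it failed the correction over all genes. It was 0.77 without TS + SM replicate 3, the pool in which *ppp1r27a* was highest.

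The interaction was 0.48 for *abra* (95% confidence interval -0.48 to 1.45), -0.61 for *myoz3a* (-1.50 to 0.28), -0.21 for *myoz1a* (-1.05 to 0.62) and -0.09 for *myoz1b* (-0.77 to 0.60). Among these 5 only the interval of *ppp1r27a* left out 0 before adjustment. With a library left out, the sign of *myoz1b* was not firm, at 0.095 without C replicate 3. *abra* kept its sign but fell to 0.091 without TS + SM replicate 3. The signs of *myoz1a* (-0.43 to -0.05) and *myoz3a* (-0.79 to -0.33) also held. In the interaction, edgeR called 0 of 5 and DESeq2 0 of 5, with 1 of 5 under an unadjusted *P* of 0.05. Over all genes edgeR called 0 (0%), with 171 under an unadjusted *P* of 0.05, and DESeq2 called 2. Here too, 0 of 5 called does not set these genes apart from the rest.

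**Figure D2:**
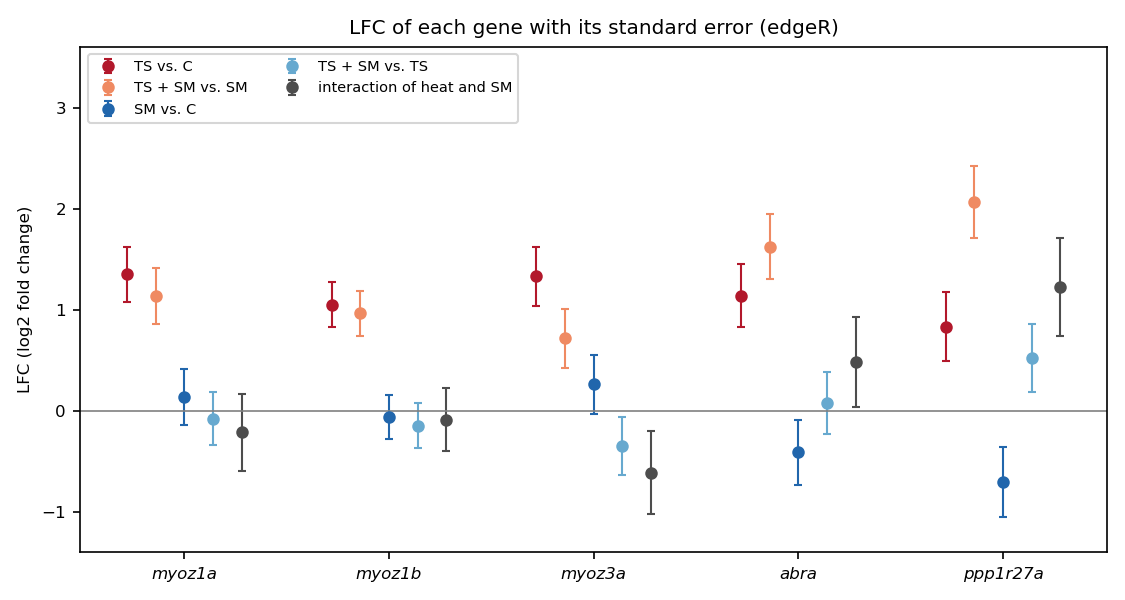
LFC of the 5 genes (y axis, log2 units) in TS vs. C, TS + SM vs. SM, SM vs. C, TS + SM vs. TS and the interaction of heat and SM, from left to right within each gene; points are edgeR estimates and error bars are standard errors. The heat differences lie between 0.72 and 2.06 and are a description. The SM differences lie between -0.70 and 0.53 and none passed the test. With edgeR none of the 5 genes was called in the 2 heat comparisons shown either.

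The nearest relatives of the 5 genes were then read, since they show whether a heat difference is shared across each family. A pair of genes carries the name MYOZ2 in the name table (written there in capitals), and no other myozenin was tested. The first, ENSDARG00000012311, had 581 to 823 normalized counts in TS + SM, 487 to 685 in TS, 322 to 478 in SM and 320 to 776 in C. Its heat LFC averaged over media was 0.46 (SE 0.21, unadjusted *P* 0.0447, *P*-adj 0.52 with edgeR), and its heat pools overlapped those of C. The second MYOZ2 gene, ENSDARG00000037266, had 323 to 345 normalized counts in TS + SM, 389 to 563 in TS, 286 to 453 in SM and 338 to 410 in C. Its LFC was 0.07 (SE 0.14, *P*-adj 0.988 with edgeR), and its pools with heat overlapped those without heat, while TS + SM lay below TS (LFC -0.46, unadjusted *P* 0.0365, *P*-adj 0.996 with edgeR). The difference between these LFCs and those of the 5 genes was not tested.

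The makeup of the myozenin counts was compared next. *myoz1a*, *myoz1b* and *myoz3a* together made up 57.4% to 65.3% of the counts of the 5 myozenin genes in TS + SM, and 58.2% to 64.8% in TS. Their share was 41.6% to 58.3% in SM and 44.9% to 49.0% in C. The TS and C ranges did not overlap, and the TS + SM and SM ranges overlapped. As these genes were chosen for higher heat counts, this is a description. How often such ranges lie apart for other genes was not counted.

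The paralogs of *abra* and *ppp1r27a* were read in the same way. *abraa* (ENSDARG00000038583), a second ABRA gene that was picked after its values were seen, had 253 to 299 normalized counts in TS + SM, 344 to 403 in TS, 130 to 320 in SM and 338 to 375 in C. Its heat LFC was 0.11 (SE 0.18, *P*-adj 0.981 with edgeR). The SM pools of *abraa* lay below its C pools, and its TS + SM pools below its TS pools. With SM averaged over temperatures its LFC was -0.49 (unadjusted *P* 0.0203, *P*-adj 0.802 with edgeR). In that contrast 713 of all genes tested had an unadjusted *P* under 0.05. PPP1R27 (ENSDARG00000100504), the other PPP1R27 gene, had between 0 and 4 counts in every library and was not tested. A heat difference in it was not detectable at this depth.

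The Z-disc beyond the 5 genes was read from a list of 70 symbols that holds none of them, of which 61 were matched and 54 genes tested. With heat averaged over media, 3 of the 54 were called higher and 0 lower by edgeR, and 11 had an unadjusted *P* under 0.05. Of the 54, 35 had an LFC above 0. Among the 11, FHL1 (ENSDARG00000071498), picked after its values were seen, was lower (LFC -0.45, unadjusted *P* 0.029 with edgeR). The median LFC of the 54 was 0.11 beside -0.00 over all genes tested. DESeq2 called 6 higher and 0 lower. The 3 genes were *tcap*, XIRP2 and NRAP.

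*tcap* (ENSDARG00000007344) encodes telethonin, the titin cap and a binding partner of myozenins in mammals. It had 90.3, 69.7 and 112 normalized counts in TS + SM, and 161, 107 and 83.1 in TS. It had 27.9, 22.6 and 19.8 in SM, and 18.2, 24.3 and 26.1 in C, so that the lowest heat pool was more than double any pool without heat. The LFC of *tcap* was 2.15 (SE 0.23, *P*-adj 0.00122 with edgeR), and it passed in each of the 12 fits that left out a library.

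XIRP2 (ENSDARG00000091090) encodes a Xin repeat protein that binds and stabilises actin filaments. It had 32.9, 38.7 and 114 normalized counts in TS + SM, and 32.2, 28.4 and 88.0 in TS. It had 0, 7.14 and 4.41 in SM, and 12.2, 2.92 and 11.2 in C. Its LFC was 3.19 (SE 0.59, *P*-adj 0.0283 with edgeR), and it passed in 5 of the 12 fits that left out a library (*P*-adj up to 0.0919, without C replicate 2). A second XIRP2 gene of the list, ENSDARG00000071113, was picked after its values were seen. It had 641 to 1141 normalized counts in the heat pools and 462 to 862 in the pools without heat. The LFC of this second gene was 0.31 (SE 0.19, *P*-adj 0.737 with edgeR). NRAP (ENSDARG00000009341), an anchoring protein of actin filaments during myofibril assembly, had 382 to 664 normalized counts in TS + SM, 500 to 601 in TS, 244 to 326 in SM and 228 to 349 in C. The LFC of NRAP was 0.83 (SE 0.16, *P*-adj 0.0340 with edgeR). NRAP kept its call in 3 of those 12 fits, and its *P*-adj was highest at 0.113 without C replicate 2.

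**Figure D3:**
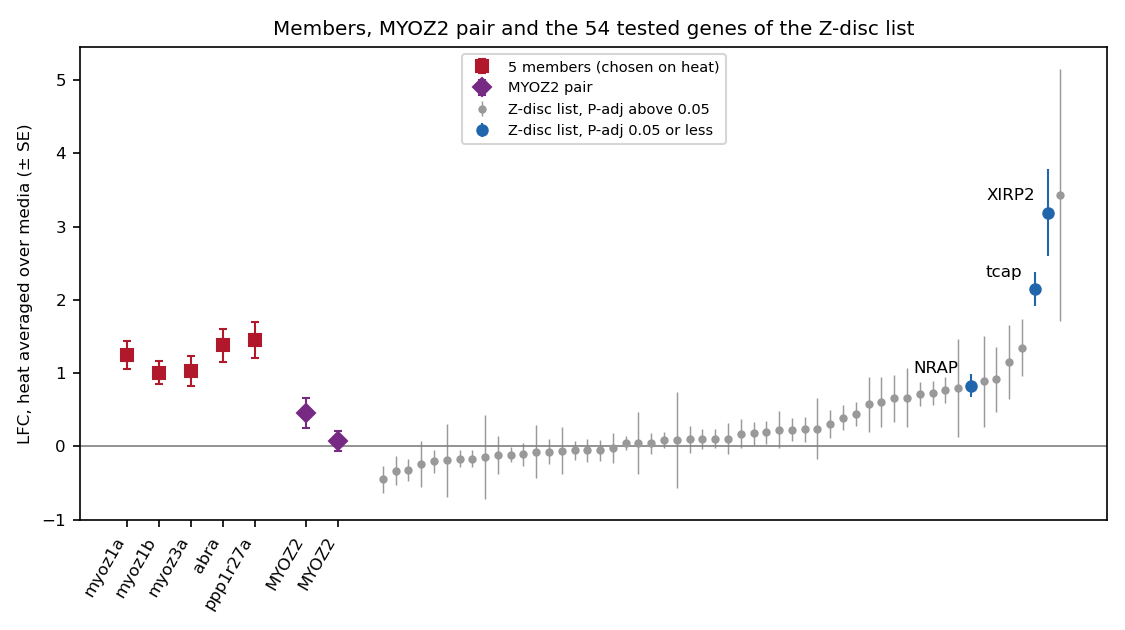
LFC with heat averaged over media (y axis, log2 units, error bars SE) for the 5 genes, the MYOZ2 pair (ENSDARG00000012311, then ENSDARG00000037266) and the 54 tested genes of the Z-disc list, the last sorted from low to high. *tcap* at 2.15, XIRP2 at 3.19 and NRAP at 0.83 passed the test, and most of the list lies near its median of 0.11; the point at the far right has a wide error and did not pass.

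The signalling partners of these proteins were read from 3 further lists. Of 21 tested genes of calcineurin signalling, edgeR called 1 higher and 0 lower, with 3 under an unadjusted *P* of 0.05. The median LFC was 0.05, and DESeq2 called 1 higher and 1 lower. The gene called higher was *ppp3ca* (ENSDARG00000004988), a catalytic subunit of calcineurin, with 489 to 575 normalized counts in TS + SM, 493 to 538 in TS, 367 to 404 in SM and 345 to 413 in C. The LFC of *ppp3ca* was 0.46 (SE 0.09, *P*-adj 0.0417 with edgeR), its heat pools lay above all others, and its call was lost in each of the 12 fits that left out a library (*P*-adj 0.0551 to 0.134). Of 26 tested genes of the actin, MRTF and SRF axis on which ABRA acts, edgeR called 0, with 4 under an unadjusted *P* of 0.05 and a median LFC of 0.16, and DESeq2 called 2 higher. Of 27 tested genes of the PP1 list, edgeR called 0, with 4 under an unadjusted *P* of 0.05 and a median LFC of 0.05, and DESeq2 called 0. That list holds PP1 subunits and regulators and also DYSF, the dysferlin gene, which is neither. DYSF is among the 4 (LFC 0.28, unadjusted *P* 0.0472 with edgeR).

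Marker lists of muscle and other tissues were read in the same contrast. Of 27 tested fast muscle genes, edgeR called 5 higher and 0 lower with heat averaged over media, and 23 had an unadjusted *P* under 0.05. Of the 27, 24 had an LFC above 0. Among the 23, *myhb*, picked after its values were seen, was lower (LFC -1.02, unadjusted *P* 0.029 with edgeR). The median LFC of the list was 0.74, and DESeq2 called 16 higher, beside 443 genes called in either direction over all. The 5 include *atp2a1l*, a calcium pump of the sarcoplasmic reticulum (LFC 3.19), and the calcium-binding parvalbumins *pvalb1* (1.60) and *pvalb3* (1.47). The summed list had 233155 to 417055 normalized counts in TS + SM, 282749 to 432795 in TS, 158805 to 200127 in SM and 199671 to 271171 in C. Of 17 myogenic regulators, edgeR called 1 lower and 0 higher (median LFC -0.02), with 6 under an unadjusted *P* of 0.05. DESeq2 called 3 lower, and edgeR 2 without SM replicate 3 or TS replicate 3. The 1 gene was MYOG, the myogenin of late myogenesis (LFC -1.05, *P*-adj 0.00474 with edgeR, and 0.145 in the unstranded count column). The study had already named *atp2a1l*, *myhz2* (another of the 5 called) and MYOG as heat genes from these libraries, so that their direction is not independent evidence.

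Of 19 tested segmentation genes, which pattern the presomitic mesoderm as somites form, edgeR called 8 lower and 0 higher (median LFC -1.18). An unadjusted *P* under 0.05 was found for 12 of them with edgeR, and DESeq2 called 10 lower. Between 5 and 7 were called lower with a library left out, and 5 without C replicate 1, SM replicate 1, TS replicate 1, TS + SM replicate 2 or TS + SM replicate 3. They include *mespab* (LFC -3.89), *mespbb* (-2.49) and *ripply2* (-2.48). In the heat pools the raw counts were only 1 to 7 for *mespab* and *mespbb* and 3 to 13 for *ripply2*. The size of these LFCs is therefore uncertain. *mespbb* passed in 5 of the 12 fits that left out a library, with *P*-adj up to 0.0802 without TS replicate 1. The study picked some genes of this list from these libraries, so that its direction is not independent evidence.

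edgeR called 0 genes in the lists of slow muscle (15 tested, median LFC 0.29, 3 under an unadjusted *P* of 0.05), heart muscle (11, 0.25, 4), smooth muscle (8, 0.28, 2), epidermis (11, 0.04, 3), neural tissue (12, 0.19, 3), hatching gland (6, -0.10, 1) and erythroid cells (8, 0.30, 2). DESeq2 called 2, 1 and 2 genes higher in the slow, heart and smooth muscle lists, and 0 in the other 4. The 2 smooth muscle genes, TAGLN (ENSDARG00000045408) and *acta2*, are the same 2 that DESeq2 called in the actin, MRTF and SRF list. With a library left out edgeR called 1 gene higher in the slow and heart muscle lists (without SM replicate 3), in the epidermis list (without TS + SM replicate 3) and in the neural list (without TS replicate 3). The 5 fast muscle genes, MYOG and the 8 segmentation genes thus changed with heat beside the 5 genes described here, and their part in that heat difference was not tested.

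The 5 genes were also set against the fast muscle list within each pool. Per 10000 normalized counts of the list, *myoz1a* had 5.62 ± 1.55 in TS + SM and 5.37 ± 0.661 in TS, against 4.26 ± 0.824 in SM and 3.32 ± 0.499 in C (SD, n = 3 each). The TS pools (4.93 to 6.13) lay above the C pools (2.80 to 3.80), while the TS + SM and SM pools overlapped. *myoz1b* had 38.4 ± 4.71 in TS + SM and 39.7 ± 3.95 in TS, against 33.6 ± 4.45 in SM and 29.2 ± 3.56 in C. *myoz3a* had 3.69 ± 0.576 in TS + SM and 4.26 ± 0.445 in TS, against 3.89 ± 0.698 in SM and 2.65 ± 0.837 in C. For both, TS and C stayed apart and TS + SM and SM overlapped. How many of all genes would have TS and C apart on this measure was not counted, so this is a description.

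For the other 2 genes the heat pools lay apart in stress medium and overlapped in fresh medium. *ppp1r27a* had 10.3 ± 3.22 per 10000 fast muscle counts in TS + SM and 6.82 ± 1.31 in TS, against 4.39 ± 0.806 in SM and 5.89 ± 0.273 in C. Its TS + SM pools (6.74 to 13.0) lay above its SM pools (3.63 to 5.23), while TS (5.38 to 7.95) overlapped C (5.70 to 6.20). *abra* had 3.61 ± 0.870 in TS + SM and 3.37 ± 0.943 in TS, against 2.06 ± 0.176 in SM and 2.31 ± 0.575 in C. Its TS + SM pools (2.62 to 4.27) were likewise above its SM pools (1.95 to 2.26), and TS (2.29 to 3.98) overlapped C (1.97 to 2.97). For each of these 2 genes the mean was still higher in TS than in C. A single TS pool made the overlap, replicate 1 for *ppp1r27a* (5.38) and replicate 3 for *abra* (2.29). A difference between media on this measure was not tested. The summed list was itself higher with heat in each medium, so that dividing by it lowers the heat difference of any gene. Smaller heat differences on this measure were thus fixed in advance and are a description. For *myoz3a* the mean in TS + SM (3.69) was below that in SM (3.89). None of the 5 genes kept both heat treatments apart from their controls, and how many of all genes would do so was not counted.

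**Figure D4:**
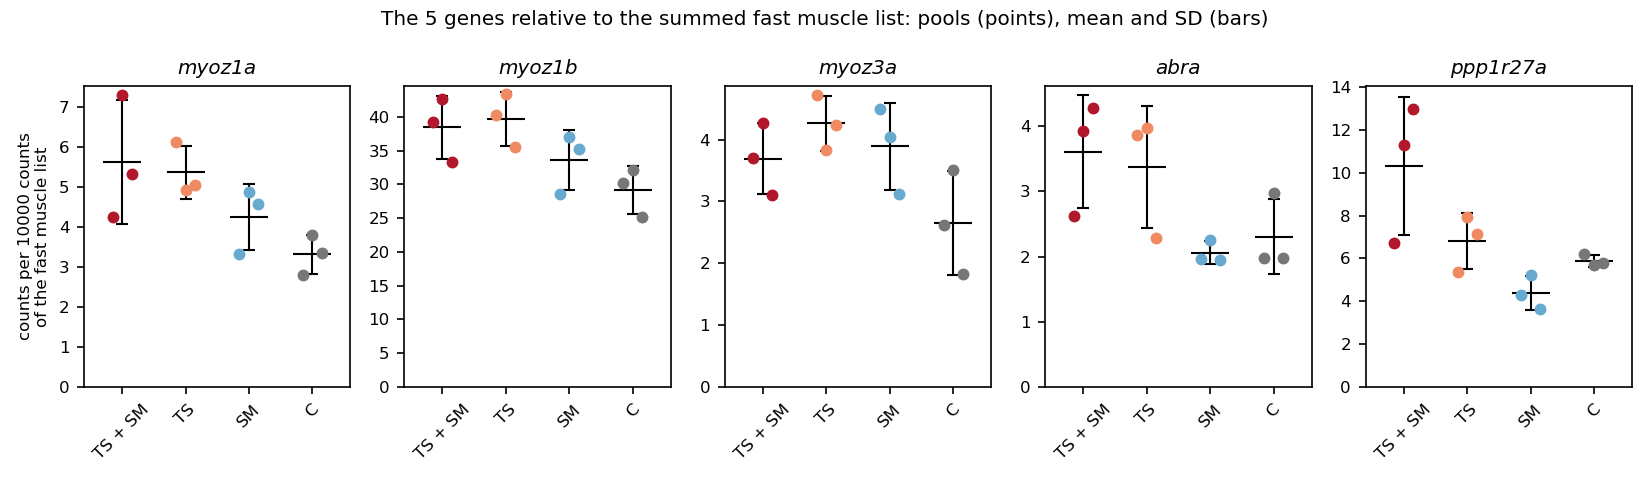
Normalized counts of each gene per 10000 normalized counts of the fast muscle list (y axis, linear from 0), with TS + SM, TS, SM and C from left to right. Points are pools, horizontal bars are means and error bars are SD (n = 3). TS lies above C for the 3 myozenins and TS + SM lies above SM for *abra* and *ppp1r27a*, while the other heat pairs overlap. How many of all genes would lie apart on this measure was not counted.

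Among themselves the 5 genes varied together from pool to pool. Pearson's *r* of log2 CPM over the 12 pools ranged from 0.690 (*myoz3a* with *ppp1r27a*) to 0.941 (*myoz1a* with *myoz1b*) over the 10 pairs. In the levels of these 5 genes the heat pools lie apart from the pools without heat. The genes were selected on that split, so *r* is a description. Within the 6 heat pools it ran from 0.04 (*myoz3a* with *ppp1r27a*) to 0.86 (*myoz1b* with *myoz3a*), and within the 6 pools without heat from -0.08 (*myoz3a* with *ppp1r27a*) to 0.81 (*myoz1a* with *myoz1b*). With treatment means removed, all 10 values were above 0 (0.40 to 0.69). How often such values lie above 0 for pairs of other genes was not counted, so they are not shown to be particular to these 5. The 5 genes of a pool share its library and its embryos.

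Among all other genes tested, the 3 with the highest *r* to each of the 5 over the 12 pools were listed. For *myoz1a* these were *glra4a*, a glycine receptor subunit (*r* 0.969), TXNIP, which binds thioredoxin (0.965), and SLC25A4, a mitochondrial ADP/ATP carrier (0.949). For *myoz1b* they were EEF2, a translation elongation factor (0.970), NRAP (0.965) and CASQ1, the calcium buffer calsequestrin (0.964). For *myoz3a* they were TXNIP (0.938), *fap*, a serine protease (0.923), and ADCY6, an adenylyl cyclase (0.912). For *abra* they were *nme2b.2*, a nucleoside diphosphate kinase (0.966), *myot*, the Z-disc protein myotilin (0.948), and CDNF, a neurotrophic factor (0.938). For *ppp1r27a* they were XIRP2 (ENSDARG00000091090, 0.944), CDNF (0.921) and CASQ1 (0.919).

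Within the heat pools the *r* of *abra* with *myot* was 0.864, and within the pools without heat it was 0.917. For *ppp1r27a* with XIRP2 these were 0.898 and 0.767, and for *myoz1a* with SLC25A4 0.472 and 0.799. The mean *z*-score of the 5 genes was most like TXNIP (0.974), *glra4a* (0.973), CASQ1 (0.968), NRAP (0.966) and DHRS7C, a reductase family member (0.966). These *r* values were the highest among the tested genes outside the 5, over 12 pools that share the heat split. Of the pools, the mean *z*-score of the 5 was highest in TS + SM replicate 3 (1.36) and lowest in SM replicate 1 (-1.34).

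**Figure D5:**
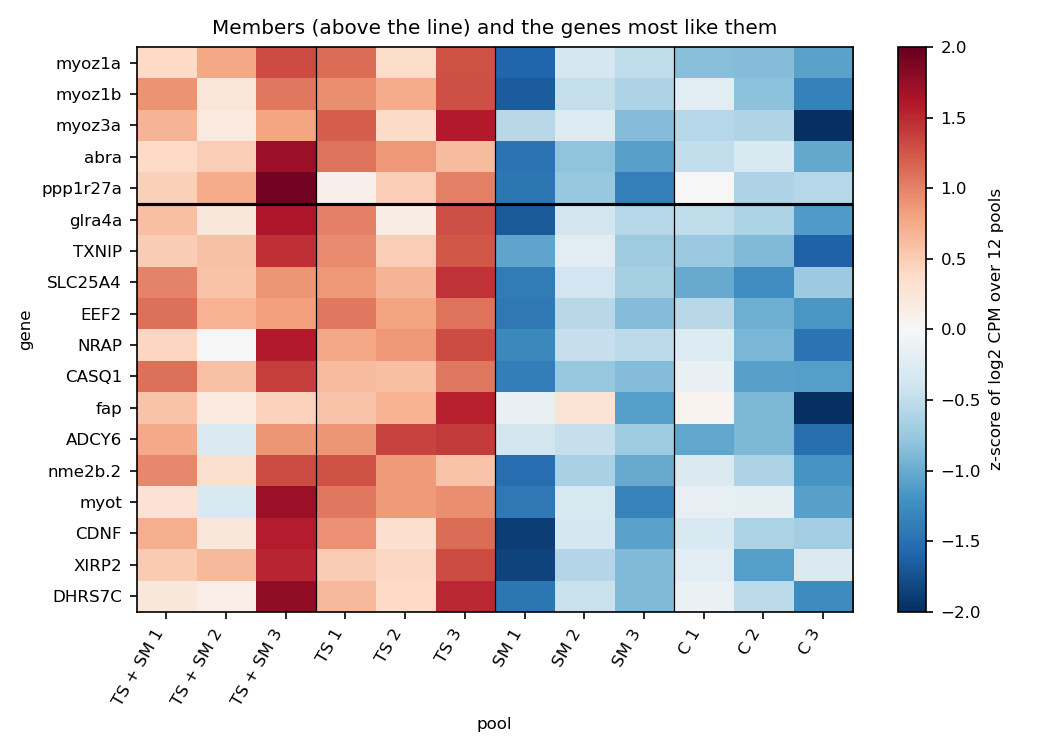
*z*-scores of log2 CPM over the 12 pools (color scale from -2 to 2) for the 5 genes, above the black line, and the 13 genes most like them, below it, with pools of TS + SM, TS, SM and C from left to right. The heat pools are mostly red and the others mostly blue, with the mean *z*-score of the 5 highest in TS + SM replicate 3 (1.36) and lowest in SM replicate 1 (-1.34).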

How the data were processed

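RNA from 12 pools of whole embryos (3 each of TS + SM, TS, SM and C) was sequenced from strand-specific mRNA libraries. The authors trimmed reads with fastp 0.23.1, aligned them to GRCz11 with STAR 2.6.1 and deposited STAR's raw counts per gene, in an unstranded and 2 stranded columns. The stranded column 4 was used, and the opposite strand held 2.61% to 3.45% of the counts of both strands together. Tests used edgeR 4.0.16 in R 4.3.3 (TMM, filterByExpr by treatment, robust quasi-likelihood F test, two-sided) in 1 model of the 12 libraries, with Benjamini-Hochberg adjustment over 18688 genes and a threshold of 0.05. Log2 CPM used a prior count of 2. The script was tested on simulated data.

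The 5 genes and all lists were chosen with earlier results of these data known. Named beside them are the paralogs, at most 3 genes of each list with the largest LFC among those called, and the most alike genes by *r*. A few further genes were named after their values were seen. Gene names came from a table of 29201 IDs, which gives some in capitals without a paralog letter. Promoter motifs were not analysed here.

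Alternatives were DESeq2 1.42.0, its size factors, no count filter, the unstranded column, a block for replicate number, thinning to the smallest library, only the libraries of the pair compared, and each library left out. In same-numbered libraries the *r* of deviations was 0.294 to 0.786 for C and TS, and 0.106 to 0.619 for C and TS + SM. It was 0.061 to 0.556 for TS and TS + SM, and 0.024 to 0.498 for SM and TS + SM. For SM with C and SM with TS it had both signs. The main model held no term for pairing, and the block for replicate number was the only fit that did.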

Additional observations from a re-analysis of the deposited data

How the results depend on the processing

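No LFC or count reversed its direction under any alternative where it had passed the test. Of the counts and medians of a whole comparison, 162 alternatives kept the value within 1.5 times (counts) or within 0.280 (median LFCs, the mean SD of the 5 genes' average log2 CPM within a treatment), and 22 moved it further. With DESeq2 the Z-disc list had 6 calls with heat averaged over media (3 with edgeR), the calcineurin list 2, of which 1 was lower (1 with edgeR) and the actin, MRTF and SRF list 2 (0 with edgeR). Without the low-count filter the calcineurin list had 0. With each library left out in turn, the calls ranged from 1 to 3 in the Z-disc list, from 0 to 0 in the calcineurin list and from 0 to 1 in the PP1 list, where 1 gene was called lower without SM replicate 3. The median LFC of the 5 genes ranged from 0.99 to 1.26 in TS vs. C, from 0.91 to 1.297 in TS + SM vs. SM and from 1.13 to 1.33 with heat averaged over media. No member was called in SM vs. C, TS + SM vs. TS or the interaction under any alternative run. With the replicate block the Z-disc list kept 3 calls, the calcineurin list 1 and the other 2 lists 0, the fast muscle list had 5 and the myogenic list 1, while the segmentation list had 11 lower (8 without the block). The 7 tissue lists with 0 calls had 0 with the block, and every gene named above as called kept its call. Over all genes with heat averaged over media, 159 were called by edgeR, 202 with the block, 443 with DESeq2 and 72 (without C replicate 2) to 172 with a library left out. In TS vs. C 18 were called by edgeR, 113 with DESeq2, 0 with only the libraries of that pair and 7 (without C replicate 2) to 18 with a library left out. In TS + SM vs. SM these were 20, 143, 2, and 2 (without SM replicate 2, SM replicate 3 or TS + SM replicate 1) to 30, with 36 under the block. LFCs near 0 that had not passed the test changed sign in 25 cases, all but 1 of which left out a library. With a library left out, *myoz1a* ranged from -0.023 to 0.36 in SM vs. C, from -0.24 to 0.066 in TS + SM vs. TS and from -0.052 to 0.14 with SM averaged over temperatures. *myoz1b* ranged from -0.22 to 0.15 in SM vs. C, from -0.27 to 0.095 in the interaction and from -0.17 to 0.013 with SM averaged. *abra* ranged from -0.31 to 0.26 in TS + SM vs. TS. With SM averaged, *myoz3a* ranged from -0.16 to 0.053 (0.065 with thinned libraries) and *ppp1r27a* from -0.32 to 0.038. The depth limits PPP1R27, and 3 pools a treatment limit the stress metabolite comparisons. The causes of these moves were not tested.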
